A study of Mus musculus with 6 samples.

Results

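Sub-cluster 16 is a small group of cells from preparations of adult mouse striatum that the authors obtained when they re-clustered the cells of all *Sox9*-positive clusters. Its members were the cells with the number 16 in the deposited table of annotated cells, and their counts were found by barcode. It held 121 cells, of 1118 astroglial cells at 3 months (3m), 9992 astroglial cells at both ages and 14373 annotated cells in the series. All 121 came from the 3m libraries, 14 from replicate 1, 89 from replicate 2 and 18 from replicate 3. None of the 8874 astroglial cells from postnatal day 3 (P3) was in it, which by counting error alone allows a share of up to 0.0338% in these libraries. That limit treats the cells as independent draws and takes no account of differences between libraries. In the clustering of all cells, 120 of the 121 belonged to one 3m astrocyte cluster, number 14, and 1 to cluster 5.

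The samples were striatal cell suspensions of wild-type male C57BL/6 mice, enriched with magnetic beads for ACSA2, a surface antigen of astrocytes, and profiled with 10x Genomics 3′ droplet libraries. There were 3 libraries at P3 and 3 at 3m, and by the study's methods tissue of several animals was pooled for a preparation. The description below sets sub-cluster 16 against the other 997 astroglial cells of the same 3m libraries (199, 457 and 341 cells in replicates 1, 2 and 3). These comparison cells were not the same mix in each library, since 182 of them in replicate 1 belonged to sub-cluster 14, while 283 in replicate 2 and 307 in replicate 3 belonged to sub-cluster 7. The remaining large group was sub-cluster 13, with 3, 168 and 31 cells. Sub-clusters 2, 4 and 5, made up almost wholly of P3 cells, gave 2, 1 and 4 further comparison cells. No cell of sub-cluster 16 shared its barcode sequence with a cell of another library, and Scrublet, a doublet caller, marked 0 of its 121 cells among 76 of 4730 3m barcodes.

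The sub-cluster was made by clustering these cells on these genes, so the differences in expression are described with their spread over libraries and carry no p-value. Levels are given in CPM, the UMIs (unique molecular identifiers, each counting one captured transcript) of a gene per 1000000 UMIs in the summed cells of a library. A log2 ratio compares sub-cluster 16 with the other 3m astroglial cells of the same library after adding 10 CPM to both, and is given as the mean ± SD over libraries (n = 3). A gene was called higher or lower only when it was past 2-fold in every library.

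Astrocytes take up glutamate, buffer potassium, couple to each other through gap junctions and supply lipids to neurons. Oligodendrocytes are the cells that make myelin. Some messenger RNAs are not spread evenly within a cell. The RNA for myelin basic protein is carried by kinesin motors into the processes of oligodendrocytes and translated at the myelin sheath, and several synaptic RNAs are carried into dendrites. *Malat1* is a long non-coding RNA that is retained in the nucleus. This is background from textbooks and was not measured in these libraries.

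The astroglial label was met only in part. *Sox9*, the transcription factor by which the authors chose astroglial clusters, was at 182, 147 and 150 CPM in sub-cluster 16 (replicates 1, 2 and 3) against 454, 539 and 435 CPM in the other cells, so every library was lower than every comparison value. Its log2 ratio was −1.52 ± 0.27. Of the 10 genes with the highest ratios, *Mbp* and *Mobp* came from the list of 12 oligodendrocyte markers and none from the 10 pan-astrocyte markers. The comparison cells are astroglial themselves, so pan-astrocyte markers could hardly rank there, and their absence is no evidence on the label. *Slc1a2*, which encodes the main astrocytic glutamate transporter, was nonetheless at 6086, 5659 and 4979 CPM, slightly above its 4658, 4801 and 4834 CPM in the other cells. It was found in 116 of the 121 cells. All 121 cells held *Mbp*, so the overlap of these genes follows from their counts. The group is therefore called by its number here.

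The share of sub-cluster 16 among 3m astroglial cells differed between libraries. It was 6.57% in replicate 1 (95% Wilson interval 3.96 to 10.7%), 16.3% in replicate 2 (13.4 to 19.6%) and 5.01% in replicate 3 (3.19 to 7.79%), with a mean of 9.30% ± 6.12 (SD, n = 3). The interval of replicate 2 did not overlap the others. The intervals cover counting error only.

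Cells of sub-cluster 16 were shallow. Their median UMI count was 2484.5, 1658 and 1604 in the 3 libraries against 5464, 3341 and 3922 in the other astroglial cells, a ratio of 0.453 ± 0.0437. The median number of genes was 830.5, 727 and 629.5 against 2085, 1422 and 1589. The median mitochondrial percentage of UMIs was 4.39, 5.96 and 6.98% against 8.38, 5.97 and 6.01%, so the difference had no common direction (−1.01 ± 2.63 percentage points).

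The cells differed from the others most plainly in 2 fractions of their RNA. *Malat1* made up a median of 0.0272% of a cell's UMIs in replicate 1, 0.0543% in replicate 2 and 0.0209% in replicate 3, against 11.5, 6.44 and 9.05% in the other cells. Of the 121 cells, 110 had *Malat1* below 1% of UMIs (90.9%) and 55 had none, whereas 139 of the 997 other cells were below 1% (13.9%) and 36 had none. The ranges overlapped, since 1 cell of sub-cluster 16 in replicate 2 reached 15.2%. Cytosolic ribosomal protein genes took a median of 26.4, 20.4 and 29.9% of UMIs in sub-cluster 16 against 3.33, 4.02 and 3.77%. More than 10% of UMIs came from these genes in 119 of 121 cells (98.3%) and in 14 of 997 others (1.40%). These ranges overlapped too, since 1 comparison cell of replicate 2, from sub-cluster 2, reached 51.4%. The maximum in sub-cluster 16 in that library was 36.8%.

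**Figure D1:**
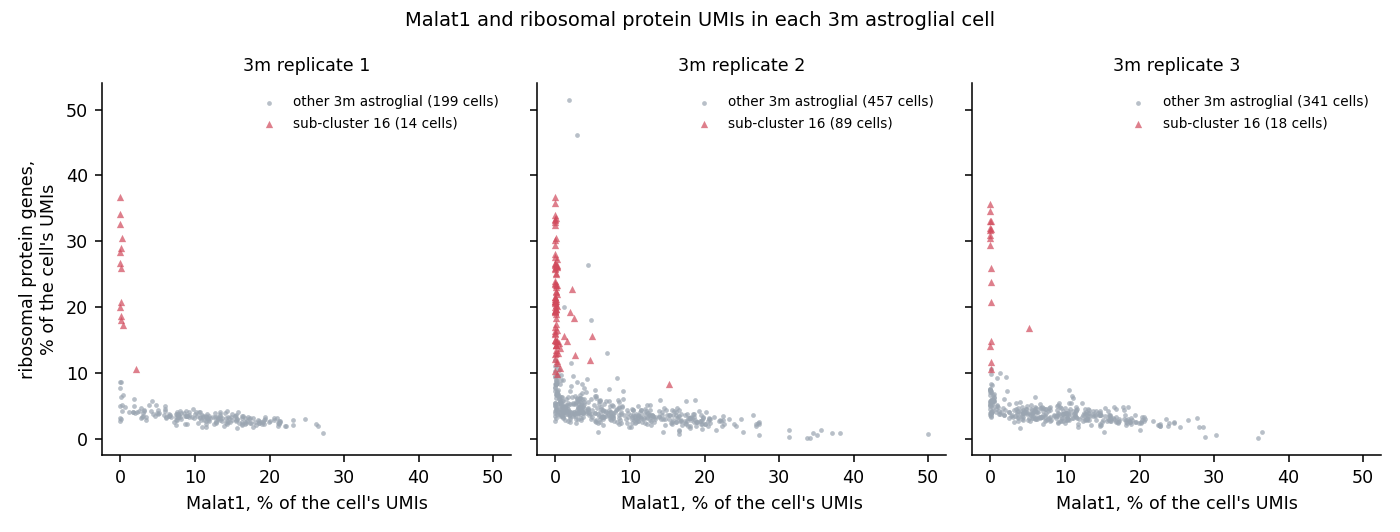
Each point is 1 cell, with the percentage of its UMIs from Malat1 on the x axis and from cytosolic ribosomal protein genes on the y axis, in 1 panel for each 3m library. Most cells of sub-cluster 16 (triangles) lie at the left edge, between 10 and 37% ribosomal UMIs, above the other 3m astroglial cells (dots), most of which lie below 10%.

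Over all genes, 5143 had a mean of at least 20 CPM and were counted. Of these, 299 (5.81%) were higher and 394 (7.66%) were lower in sub-cluster 16 by at least 2-fold in all 3 libraries. Since the sub-cluster rests on these genes, the 2 percentages are the background for the lists below and no evidence of their own. The median gene had a log2 ratio of −0.50. TMM scaling, which uses genes that change least, moved that median to −0.74 and gave 249 higher and 606 lower genes, so that higher genes were 29.1% of the calls in place of 43.1%. UMI sums in sub-cluster 16 were 38451, 176876 and 33341, so 1 UMI stood for 26.0, 5.65 and 30.0 CPM, and 3 UMIs for 78.0, 16.96 and 90.0 CPM. Many of the lower genes lay under that depth. Of the 394, 123 had no UMI in replicates 1 and 3, and 15 had none in any library. Among the 402 genes for which the comparison level gave at least 10 expected UMIs in each library, 83 were lower.

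*Mbp*, the gene for myelin basic protein, had the highest ratio of all. It was at 25799, 9436 and 11097 CPM in sub-cluster 16 and at 102, 438 and 242 CPM in the other cells. The lowest library of sub-cluster 16 thus stood far above the highest comparison value, and the log2 ratio was 5.90 ± 1.77. All 121 cells held at least 1 *Mbp* UMI. After every cell was thinned to 1000 UMIs (1 shallower cell of sub-cluster 16 was left out), *Mbp* was found in 97.5% of sub-cluster 16, in 10.9% of sub-clusters 7 and 14, in 29.9% of sub-cluster 13 and in 6.75% of an endothelial cluster, number 17, that should lack it. Unthinned, the share in that endothelial cluster was 19.6% at a median of 5934 UMIs, against 1688 UMIs in sub-cluster 16. Thinning evens out UMI counts only, so the endothelial share sets no background level for cells as shallow as these.

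*Mobp*, which encodes another myelin-associated protein (chromosome 9, 120149707 to 120181484, plus strand, GRCm38), was at 6268, 1312 and 1829.6 CPM against 30.4, 57.0 and 28.5 CPM. *Bcas1*, a gene of myelinating oligodendrocytes, was at 2445, 967 and 1379.7 CPM against 6.26, 40.8 and 20.2 CPM. For both genes, as for *Mbp*, replicate 1 was the highest library of sub-cluster 16 and had the lowest or second lowest comparison level. The log2 ratios were 5.72 ± 1.49 for *Mobp* and 5.68 ± 1.49 for *Bcas1*.

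The other oligodendrocyte markers did not follow these genes in proportion. Of the 12 markers, 9 were counted, 7 were higher and none lower, with a median log2 ratio of 3.02. *Mbp* was at 509, 206 and 256% of its level in oligodendrocytes of the same libraries, and *Mobp* at 231, 99.0 and 169%. The other 10 markers were all below 20% of the oligodendrocyte level in every library. *Mog*, a protein of the outer myelin surface, was at 26.0, 45.2 and 30.0 CPM against 1683, 1314 and 1231 CPM in oligodendrocytes. *Cldn11*, the tight junction gene of myelin, had 4 UMIs in all.

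Of the 121 cells, 103 held UMIs of at least 3 of the 12 markers (85.1%), against 134 of 997 other cells (13.4%) and all 1731 oligodendrocytes. The median number of markers found was 4 in sub-cluster 16 and 12 in oligodendrocytes.

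**Figure D2:**
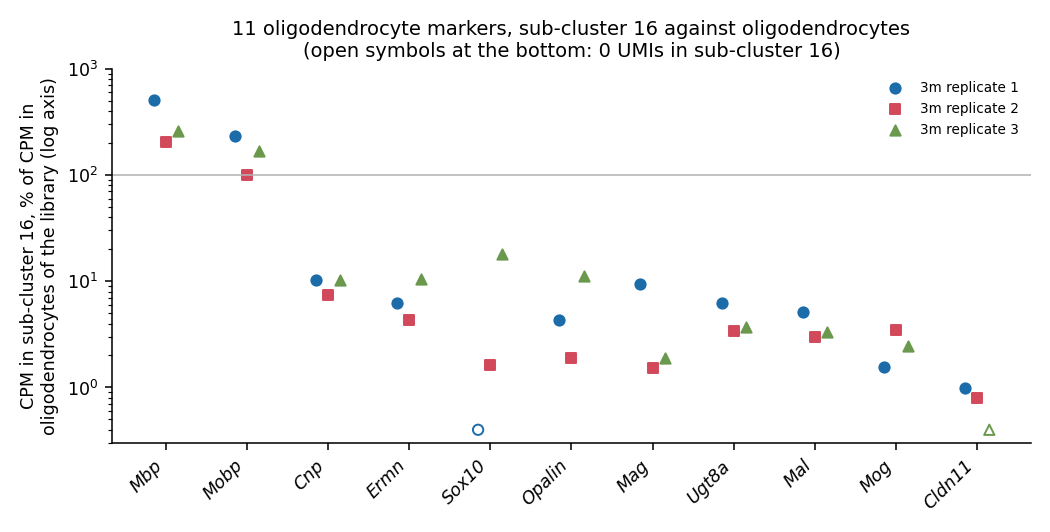
The CPM of each of 11 oligodendrocyte markers in sub-cluster 16 is given as a percentage of its CPM in oligodendrocytes of the same library, on a log axis, with 1 symbol per library and a line at 100%. Mbp stands above the line in all 3 libraries and Mobp near or above it, while the other 9 lie below 20%.

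The second gene by ratio was *Kif5a*, a heavy chain of kinesin-1, the motor that carries cargo outward along microtubules (chromosome 10, 127225696 to 127263348, minus strand). It was at 4161, 2872 and 3119 CPM in sub-cluster 16 and at 23.2, 121 and 31.3 CPM in the other cells, with a log2 ratio of 5.89 ± 1.29. Thinned to 1000 UMIs, it was found in 90.8% of the cells of sub-cluster 16, in 2.58% of sub-clusters 7 and 14, in 7.42% of oligodendrocytes and in 0.613% of the endothelial cluster. Unlike *Mbp*, *Kif5a* was rare in oligodendrocytes, at 92.5 CPM in their pooled counts.

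The other 2 heavy chains were higher too. *Kif5c* was at 1716, 1091 and 1079.8 CPM against 19.7, 50.4 and 20.2 CPM. *Kif5b*, the broadly expressed heavy chain, was at 3095, 1922 and 1979.5 CPM against 83.1, 187 and 101 CPM. *Trak2*, an adaptor that links mitochondria to kinesin-1, was at 884, 752 and 479.9 CPM against 12.5, 42.0 and 10.4 CPM. In each of these genes every library of sub-cluster 16 lay above every comparison value.

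A list of 10 kinesin-1 genes, made after these values were seen, had 7 counted members, of which 5 were higher and none lower (median log2 ratio 4.17). The fifth was the light chain *Klc1*, at 260.1, 124 and 150 CPM against 26.8, 43.2 and 35.4 CPM. The members that were not called included *Trak1*, at 78.0, 28.3 and 60.0 CPM against 38.4, 36.0 and 32.7 CPM, and the light chain *Klc2*, at 78.0, 16.96 and 30.0 CPM.

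Several RNAs of neuronal dendrites and synapses were also among the 15 highest genes. *Bc1*, a short non-coding RNA made by RNA polymerase III and known as a repressor of translation in dendrites, was at 364, 2538.5 and 3149 CPM in sub-cluster 16 and at 4.47, 103 and 44.5 CPM in the other cells (log2 ratio 5.02 ± 0.73). It was lower in replicate 1 than in the other two libraries on both sides. The transcript is 168 bases long and lies on chromosome 7, 144914470 to 144914637, plus strand (GENCODE M21, GRCm38). It is printed here because it was the only non-coding RNA among the 15, with its longest run of A, 23 bases at positions 77 to 99, in capitals, since libraries of this kind are primed on runs of A.

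Bc1: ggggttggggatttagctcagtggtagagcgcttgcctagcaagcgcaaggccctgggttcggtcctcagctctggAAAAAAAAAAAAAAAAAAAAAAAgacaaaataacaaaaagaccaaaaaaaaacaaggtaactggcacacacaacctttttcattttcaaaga

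The part of *Bc1* before the run belongs to a repeat family with many copies in the mouse genome, so reads shared with other copies would make its count uncertain. *Unc13c*, of the family that primes synaptic vesicles, was at 3095, 1193 and 959.8 CPM against 34.9, 58.2 and 26.4 CPM. *Gng13*, a G protein gamma subunit, was at 416, 735 and 1589.6 CPM against 3.57, 22.2 and 13.9 CPM. *Gng13* and *Bc1* were highest in replicate 3, whereas *Unc13c* was highest in replicate 1, as *Mbp* was. *Pcp4*, a regulator of calmodulin, was at 1690.5, 967 and 1259.7 CPM against 19.7, 54.0 and 76.4 CPM.

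In a list of 14 dendritic and synaptic RNAs made after seeing values, 12 of 13 counted members were higher (median log2 ratio 3.58). *Nrgn*, neurogranin of the postsynaptic side, was at 572, 396 and 809.8 CPM against 9.83, 31.2 and 37.5 CPM, and *Camk2a* at 52.0, 67.8 and 60.0 CPM against 0.894, 3.00 and 1.39 CPM. The exception was *Map2*, for a dendritic microtubule protein, at 26.0, 283 and 150 CPM against 172, 176 and 179 CPM.

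The list of 9 neuron markers summed to 390.1, 339 and 389.9 CPM in sub-cluster 16 against 110, 121 and 147 CPM, so each library was higher. Of its 4 counted members (median log2 ratio 1.81), 1 was called higher, the synaptic vesicle gene *Snap25*, at 156, 90.5 and 120.0 CPM against 4.47, 8.998 and 11.8 CPM (26 UMIs in all). Without replicate 1 the calls were 2 and without replicate 2 they were 3. The striatal neuron gene *Ppp1r1b* was at 52.0, 164 and 90.0 CPM against 93.8, 97.2 and 108 CPM, and *Syt1* had 1 UMI. The remaining genes of the 15 were *Rapgef4*, an exchange factor activated by cyclic AMP (1925, 803 and 809.8 CPM against 1.79, 22.8 and 13.2 CPM), *Nrsn1*, *Pdlim2* and *Ctxn1*. The last 3 had log2 ratios of 4.86, 4.25 and 4.23 with SDs of 1.21, 1.09 and 0.56.

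**Figure D3:**
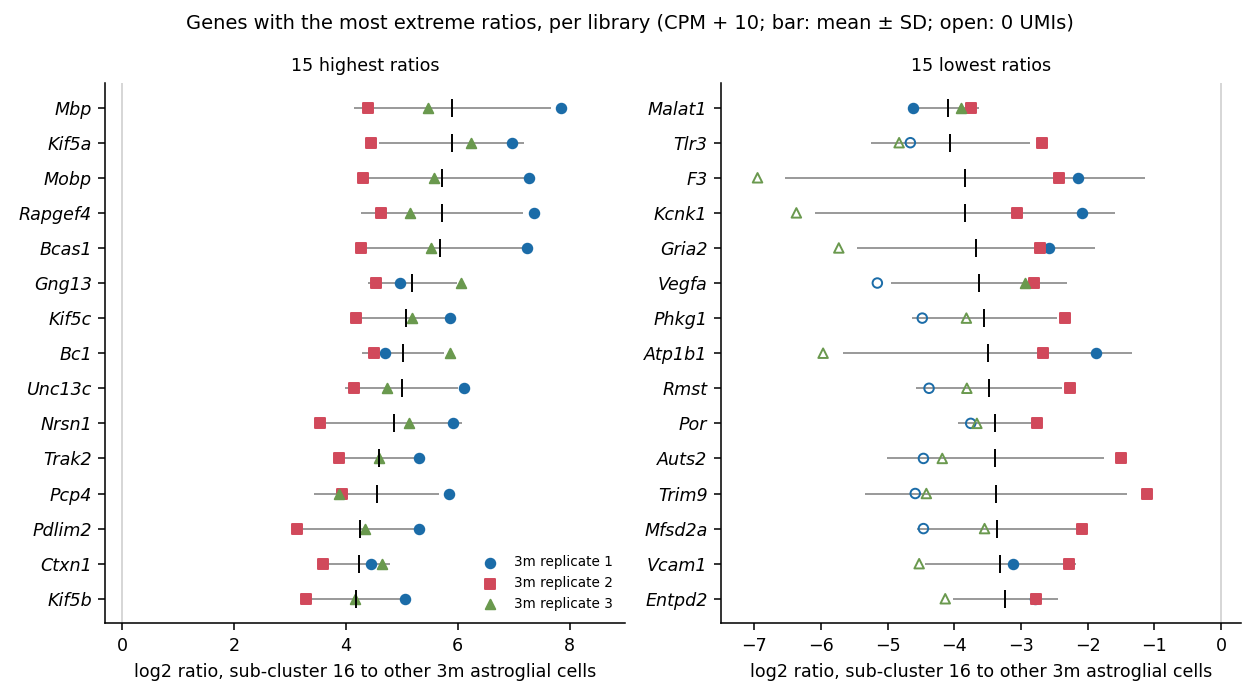
The log2 ratio of sub-cluster 16 to the other 3m astroglial cells is shown for the 15 genes with the highest and the 15 with the lowest mean ratio, with 1 symbol per library and a bar for the mean ± SD (n = 3). The highest genes have symbols above 3 in all libraries, and among the lowest, many symbols of replicates 1 and 3 are open because sub-cluster 16 had 0 UMIs there.

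*Fth1*, the heavy chain of the iron store ferritin, was the most abundant called gene in UMIs, with 7877 in sub-cluster 16. It was at 38725, 29331 and 35992 CPM against 2631, 4844 and 3888 CPM, a log2 ratio of 3.23 ± 0.64. In oligodendrocytes it was at 36358 CPM in pooled counts, so sub-cluster 16 was near their level. The light chain *Ftl1* was at 1638, 1515 and 1589.6 CPM against 591, 806 and 750.4 CPM and was not past 2-fold in every library.

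Ribosomal protein genes were higher almost as a class. Of 84 counted cytosolic ribosomal protein genes, 69 were higher and none lower, with a median log2 ratio of 2.20, against 5.81% of all genes. Together they took 22.0, 19.4 and 23.9% of the UMIs of sub-cluster 16 and 3.33, 4.76 and 3.92% of the others. Genes of the respiratory chain did not move to the same degree. Of 77 counted nuclear-encoded subunits, 7 were higher and none lower (median 0.04), or 4 and 2 with TMM scaling, and of 13 mitochondrially encoded genes none was called (median −0.27). Ribosomal protein genes and *Fth1* have processed copies in the genome, and reads that fit such a copy as well would make their counts uncertain.

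The transcripts of the higher genes were shorter at the median. By their longest GENCODE M21 transcript, the 299 higher genes had a median of 2062 bases, the 394 lower genes 3164.5 and all counted genes 3203. Without ribosomal protein genes, the higher genes had a median of 2555 bases and all counted genes 3248. A length was found for at least 98.3% of the genes in each of these groups.

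*Malat1* (chromosome 19, 5795690 to 5802672, minus strand) was the gene with the lowest ratio. It was at 4785, 6225 and 6718 CPM in sub-cluster 16 and at 118488, 84093 and 100529 CPM in the others, which is 17.1-fold lower by the means and −4.09 ± 0.47 on the log2 scale. Oligodendrocytes, with 51377 CPM in pooled counts, and sub-cluster 13, with 74273 CPM, were both far above sub-cluster 16. Among 8 non-coding RNAs held to be nuclear, a list made after seeing *Malat1*, 6 were counted, 3 were lower (*Malat1*, *Rmst* and *Mir99ahg*) and none higher, with a median of −2.25. *Neat1*, a scaffold of nuclear paraspeckles, had 6 UMIs and was not called. Against the 139 comparison cells that themselves had *Malat1* below 1% of UMIs, an alternative added after seeing the data that can say nothing on *Malat1* itself, *F3*, *Gria2*, *Vegfa*, *Atp1b1*, *Auts2*, *Trim9*, *Slc1a3*, *Rorb*, *Bcan* and *Sox2* were no longer lower by 2-fold in every library. *Snap25* and *Cryab* were no longer higher, whereas *Mbp*, *Kif5a* and *Bc1* were still called.

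Most of the other lowest genes were near the limit of depth. *F3*, coagulation factor III, was at 312 and 181 CPM in replicates 1 and 2 and at 0 UMIs in replicate 3, against 1411, 1022 and 1229.9 CPM. *Kcnk1*, a two-pore potassium channel, was at 234 and 62.2 CPM and at 0 UMIs in replicate 3, against 1027, 590.2 and 818 CPM. *Gria2*, an AMPA receptor subunit, was at 130.0 and 79.2 CPM and at 0 UMIs in replicate 3, against 828, 576 and 523 CPM.

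For *F3*, *Kcnk1* and *Gria2* at least 10 UMIs were expected in every library, and the same held for *Malat1* and *Atp1b1* alone among the other lowest 15. *Tlr3*, a receptor for double-stranded RNA, had 5 UMIs, all in replicate 2, where 41.8 would match the comparison cells. *Vegfa*, the angiogenic factor, had 6 UMIs in all. The other genes of the 15 were *Phkg1*, *Rmst*, *Por*, *Auts2*, *Trim9*, *Mfsd2a*, *Vcam1* and *Entpd2*, with 1 to 12 UMIs in all and log2 ratios from −3.55 to −3.24. Their ratios depend on the 10 CPM that was added and are no measure of size.

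Astrocyte genes were reduced unevenly in sub-cluster 16. For scale, 7.66% of all counted genes were lower, and the median log2 ratio of all counted genes was −0.50. Of the 10 pan-astrocyte markers, all counted, 3 were lower and none higher, with a median log2 ratio of −1.26, and without replicate 2 or against sub-cluster 13 only 5 were lower. *Gja1*, the main astrocytic connexin, was lower, at 286, 481 and 90.0 CPM against 1518, 1589 and 1262 CPM, and the glutamate transporter *Slc1a3* was at 1196, 1453 and 569.9 CPM against 2558, 2919 and 2676 CPM, a call that 8 of the alternative analyses did not keep. In contrast, *S100b*, for a calcium-binding protein, was at 1066, 1091 and 749.8 CPM against 588, 639 and 595 CPM, and *Glul*, glutamine synthetase, at 1977, 2838 and 1859.6 CPM against 2665, 2737 and 2847.5 CPM. In sub-cluster 13 *S100b* was at 806 and 722 CPM in replicates 2 and 3, nearer to sub-cluster 16.

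Among the 8 genes of transmitter uptake, 2 were lower, *Slc1a3* among them, and none was higher (median −0.60, near the −0.50 of all counted genes). Against sub-clusters 7 and 14 only none was lower (median −0.36), and against sub-cluster 13 only 5 were (median −1.73). The medians of all counted genes in these comparisons were −0.48 and −0.40. Among the 8 genes of gap junctions, channels and ion transport, *Gja1* and *Gjb6* were lower (median −0.98), and against sub-cluster 13 only 5 were. The potassium channel *Kcnj10* went the other way, at 338, 396 and 359.9 CPM against 92.9, 208 and 114 CPM, which was past 2-fold in replicates 1 and 3 but not in replicate 2. It was level with sub-cluster 13, which had 396 and 379 CPM in replicates 2 and 3. Of the 6 genes of the end-foot complex, *Hepacam* and *Dtna* were lower (median −1.44), or 4 genes without replicate 2 or against sub-cluster 13 only, while *Mlc1* was at 572, 458 and 239.9 CPM against 373, 443 and 313 CPM.

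Of 16 counted astroglial transcription factors, 7 were lower and none higher (median −1.25). The 7 were *Sox9*, *Sox2*, *Rorb*, *Dbx2*, *Lhx2*, *Hes5* and *Id3*. *Rorb*, a nuclear receptor, was the steadiest of these, at 234, 249 and 269.9 CPM against 1034, 858 and 1124 CPM. *Hes5*, a Notch target, was at 104, 130.0 and 30.0 CPM against 559, 603 and 467 CPM. By contrast *Nfix* was at 78.0, 232 and 150.0 CPM against 116, 189 and 133 CPM, with no common direction.

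Lipid genes gave 5 lower of 13 counted and none higher (median −1.66). *Apoe*, the lipid carrier of astrocytes, was at 14538, 9283 and 5879 CPM against 31679, 21519 and 18829.8 CPM, and *Msmo1*, of cholesterol synthesis, at 286, 16.96 and 90.0 CPM against 1001, 602 and 882 CPM. Among matrix and synaptogenic genes, 4 of 9 counted were lower (*Bcan*, *Gpc5*, *Gpc6* and *Mertk*) and none higher (median −1.29). *Sparc*, a matricellular protein, was at 494, 2748 and 479.9 CPM against 188, 1061 and 338 CPM and so was higher in each library, but by less than 2-fold in replicate 3. None of 9 counted genes of glycolysis, lactate and glycogen and none of 3 metallothioneins was called, with medians of −0.61 and −0.99. The former was near the −0.50 of all counted genes.

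The 5 telencephalic astrocyte markers gave 1 lower gene, *Lhx2*, and none higher (median −1.47), but 4 lower genes with TMM scaling and 2 without replicate 1 or without replicate 3. Of 14 non-telencephalic markers only 3 were counted and none was called (median −0.73), and 9 had no UMI in sub-cluster 16. Their direction turned with the comparison cells, since the median was 0.26 against sub-clusters 7 and 14 only and −2.16, with 2 lower genes, against sub-cluster 13 only. Summed over the list, the non-telencephalic markers were at 364, 424 and 120.0 CPM against 298, 762 and 349.5 CPM. The telencephalic markers summed to 1014, 367 and 389.9 CPM against 1846, 1347 and 1303 CPM. Of 6 counted fibrous astrocyte markers, *Cryab* was higher, at 936, 526 and 719.8 CPM against 231, 228 and 220.3 CPM, and *Id3* was lower (median −1.15). *Cryab* encodes a small heat shock protein that oligodendrocytes also express, at 6196 CPM in pooled counts. *Gfap* was at 156, 175 and 60.0 CPM against 27.7, 91.8 and 45.9 CPM and was not called. Of 5 counted reactive astrocyte genes none was called (median −0.81).

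Of the 11 mature astrocyte genes the study's text names, 5 were lower and none higher (median −1.34), and of 10 counted immature genes 1 was lower, *Hes5*, and none higher (median −0.52). The latter median was near the −0.50 of all counted genes. The study chose such genes on these samples, along a path of cells that held sub-clusters 7 and 14 but not sub-cluster 16. For its final sets it also required a change in separate cortical samples. The lists are therefore not independent evidence of a direction. By hierarchical clustering on its full gene sets, the study placed this adult cluster nearer to its early postnatal astrocytes. The few named genes here were not set against that result.

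Markers of several other cell types were at or near 0. Endothelial markers had 1 UMI over 6 genes, oligodendrocyte precursor markers 3 UMIs over 4 genes, and genes of blood, fibroblasts and choroid plexus 3 UMIs over 8 genes. Multiciliated cell markers had 3 UMIs over 7 genes, all of *Rarres2*, which was lower. Of 2 Bergmann glia markers *Gdf10* was lower, with 1 UMI, and *Hopx*, at 78.0, 84.8 and 90.0 CPM against 144, 121 and 167 CPM, was not called. Microglia markers were present in replicates 1 and 2, where the list of 8 summed to 390.1 and 628 CPM against 92.0 and 91.2 CPM, but not in replicate 3, with 30.0 against 66.7 CPM. None of their 4 counted genes was called (median 2.15), and without replicate 3, which held 18 cells, 3 of the 4 were higher (median 3.23). The complement genes *C1qa* and *C1qb* were at 78.0 and 156 CPM in replicate 1, 153 and 198 CPM in replicate 2 and 0 in replicate 3. In all, 20 of 121 cells held *C1qa*, *C1qb* or *Ctss* (16.5%). Without these cells, 300 genes were higher and 384 lower.

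Some values rested on single cells. Of 15 *Sox4* UMIs, 12 were in 1 cell of replicate 3, where the summed neural stem cell and neuroblast list stood at 689.8 CPM against 104 CPM in replicate 1 and 79.2 CPM in replicate 2. Of 3 counted members of that list none was called (median 0.98). Of 11 *Egr1* UMIs, 9 were in 1 cell. All 6 *Rgs5* UMIs, of a mural cell gene, were in 1 cell of replicate 1. Of 2 counted immediate early genes, *Jun* was lower, with 4 UMIs, and *Egr1* was not called (median −0.33). Of 2 counted mural genes, *Pdgfrb* was lower, with 3 UMIs, and *Rgs5* was not called (median −0.51).

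Sub-cluster 13 lay between sub-cluster 16 and sub-clusters 7 and 14 in several leading genes. Within replicate 2, *Kif5a* was at 241 CPM in sub-cluster 13 and 39.4 CPM in sub-clusters 7 and 14, and within replicate 3 at 71.7 and 24.2 CPM. *Mbp* was at 792 and 199 CPM in replicate 2 and at 466 and 206 CPM in replicate 3, and *Bc1* at 185 and 46.6 CPM in replicate 2 and at 102 and 35.4 CPM in replicate 3. In pooled counts, of which replicate 2 gave 168 of the 202 cells, ribosomal protein genes took 4.82% of the UMIs of sub-cluster 13, its *Sox9* was at 500.1 CPM and its *Slc1a2* at 4816 CPM. In the same counts *Sparc* was at 2116 CPM in sub-cluster 13 and 2095 CPM in sub-cluster 16, against 169.5 CPM in sub-clusters 7 and 14, but in replicate 3 sub-cluster 16 had 479.9 CPM and sub-cluster 13 had 1388 CPM. Set against sub-cluster 13 alone, in replicates 2 and 3, which had enough of its cells, 310 genes were higher in sub-cluster 16 and 571 lower. These included 253 of the 299 higher and 264 of the 394 lower genes.

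**Figure D4:**
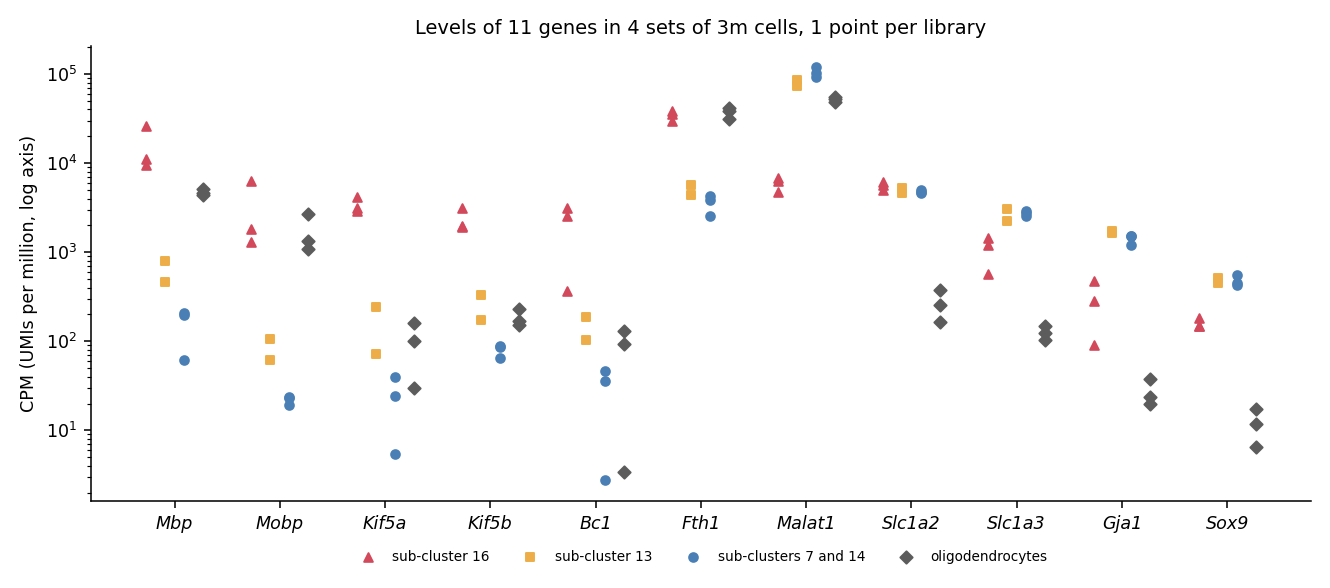
The CPM of 11 genes (log axis) is shown in sub-cluster 16, sub-cluster 13, sub-clusters 7 and 14 and oligodendrocytes, with 1 point per 3m library (replicates 2 and 3 only for sub-cluster 13). Kif5a, Kif5b and Mbp are highest in sub-cluster 16 in every library, Slc1a2 is level in the 3 astroglial sets, and Malat1 is lowest in sub-cluster 16.

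The cells of sub-cluster 16 also differed among themselves. The 18 cells with fewer than 3 oligodendrocyte markers had 7042 CPM of *Mbp*, against 12917 CPM in the other 103, which is in part set by the division. They had 3180 CPM of *Kif5a*, 2434 CPM of *Bc1*, 5257 CPM of *Slc1a2* and 20.2% ribosomal protein UMIs, and the other 103 had 3094, 2263 and 5687 CPM of these genes and 20.4%. The 11 cells with *Malat1* of at least 1% had 2014 CPM of *Kif5a* and 14.4% ribosomal protein UMIs, and the other 110 had 3288 CPM and 21.4%. Among the comparison cells, the 139 with *Malat1* below 1% had 319 CPM of *Kif5a*, 1106 CPM of *Mbp* and 6.28% ribosomal protein UMIs, and the 858 others had 37.2 CPM, 193 CPM and 3.86%. These are pooled counts and descriptions of cells chosen by their values. Whether transcripts of other cells or cell fragments had a part in these profiles was not tested.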

How the data were processed

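Droplet 3′ libraries of ACSA2-enriched striatal cells were used, 3 at 3m for all values and 3 at P3 only to count members and for barcodes that the authors left out. The authors mapped reads to mm10 with Cell Ranger and deposited raw UMI counts for 32285 genes and 16690 barcodes, merged without normalization. Their annotation holds barcodes in which more than 500 genes were found and less than 10% of UMIs were mitochondrial, clustered after SCTransform at resolution 0.6 and, for astroglia, 0.7. The submitters' processing notes list Seurat 3.1.1. The authors' deposited cell table gives cluster names, and principal component scores that were not used here.

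From the counts, UMIs were summed per library over sub-cluster 16 and over the other 3m astroglial cells, and scaled to CPM. Sums held 33341 to 176876 and 1119034 to 1667122 UMIs. Genes with a mean of at least 20 CPM were compared as log2(CPM + 10) differences within a library. No test was run, since the clusters were made from the same genes. Values from 3 libraries measure the spread between these samples. The calling was tested on simulated data.

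Named genes were any list member, and the 15 highest and 15 lowest called genes with at least 50 UMIs, without predicted, mitochondrial and ribosomal protein genes. *Ftl1*, *Klc1*, *Trak1* and others of the added lists were chosen after values were seen. The sub-cluster and the lists were chosen with earlier results of these data known. Doublets were not removed. Scrublet (scanpy 1.11.5) was run per 3m library. TMM and RLE factors came from edgeR 4.0.16 in R 4.3.3. Python 3.11.15 was used for the rest. Gene positions, transcript lengths and the printed sequence are from GENCODE M21 (GRCm38), the authors' build. Alternatives covered pseudocount, filter, scaling, per-cell means, thinning, comparison cells, doublets and left-out libraries. Leaving out the barcodes that Scrublet marked removed no 3m astroglial cell, so the doublet alternative could change no value. The replicate numbers of 3m libraries were taken from the sample titles. The values of some genes are not reported here.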

Additional observations from a re-analysis of the deposited data

Results flagged for a closer look

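3 values were flagged in barcodes that the comparisons did not use, the 347 barcodes of the 3m libraries that had at most 500 genes and were not annotated. In their pooled counts *Mbp* was at 5304 CPM, *Kif5a* at 1461 CPM and *Bc1* at 1255 CPM. In the 706 barcodes of the P3 libraries with at most 500 genes the same genes were at 24.6, 13.1 and 36.0 CPM. In sub-clusters 7 and 14 they were at 156, 22.4 and 27.8 CPM, and in oligodendrocytes at 4725, 92.5 and 67.7 CPM. The pattern was not limited to these genes. In the 347 barcodes all of the 15 highest genes were above their pooled level in sub-clusters 7 and 14. *Pcp4*, for example, was at 1330 CPM against 47.2 CPM, and *Gng13* at 542 CPM against 11.5 CPM. The 347 barcodes had a median of 985 UMIs, 23905 CPM of *Malat1* and 15003 CPM of *Fth1*. They had 1740.2 CPM of *Slc1a2*, which was below its 5634 CPM in sub-cluster 16. What these barcodes hold was not tested.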

How the results depend on the processing

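No paired analysis was possible because the results come from no test, and both sides of each ratio were already taken from the same library. The count of 299 higher genes stayed within 1.5 times except that it was 187 with 50 CPM added, 185 with a mean of at least 100 CPM and 1194 without cells that held 3 or more oligodendrocyte markers, which left 1 library, and 64 with at least 10 expected UMIs, a filter on the comparison level that removes genes low in the other cells. The count of 394 lower genes was 145 with 50 CPM added, 146 at 100 CPM, 801 with no filter on low genes, 606 with TMM scaling, 594 with the mean of per-cell CPM, 1152 without the cells with 3 or more markers, and, chosen after seeing the data, 83 with at least 10 expected UMIs and 226 against comparison cells with *Malat1* below 1%. Leaving out 1 library gave 331 to 444 higher and 561 to 719 lower genes, fewer libraries having to pass. Replicate 2, with 89 of the 121 cells, moved both counts most, to 444 and 719. In the alternatives no gene called higher became lower except 2 without the cells with 3 or more markers, and none called lower became higher. The share, the median UMI ratio and the mitochondrial difference moved by less than their SD over libraries, although the last turned to 0.478 percentage points without replicate 1. For the share that SD is a wide allowance, 6.12 on a mean of 9.30%. With all annotated 3m cells as denominator the share was 3.31%. Against cells chosen for *Malat1* below 1% the log2 ratio of *Malat1* was 0.71, which that choice sets and which does not bear on its −4.09. The share was 5.79 to 11.4% without 1 library. A stricter minimum of 1000 genes with at most 5% mitochondrial UMIs left 3, 8 and 0 cells of sub-cluster 16, too few to compare genes. The depth of 33341 UMIs in replicate 3 limits every statement on a low gene.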
